A study of Homo sapiens with 6 samples.

Results

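ATM, ATR, ATRIP, TOPBP1, RAD17, CLSPN, CHEK1, CHEK2, WEE1 and PKMYT1 code for the kinases of the DNA damage checkpoint and the proteins that recruit or activate them. These 10 of the 21447 genes with a matched transcript were chosen by gene symbol, and their RNA was compared between irradiated and untreated U-2 OS cells. U-2 OS is a human osteosarcoma cell line, and both groups were unsynchronized cells of this line, so that the results hold for 1 cell line. The IR group (3 libraries) received 4 Gy of ionizing radiation (IR), and the untreated group (3 libraries) received none. The study places its bulk RNA-seq comparison at 24 h after IR. Bulk RNA-seq gave an estimated count for each transcript, and counts were summed per gene. The study describes the libraries of a group as independent samples. Whether these were separate cultures is not given in the sources used here, and the P values below measure only the spread between these libraries.

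The checkpoint joins DNA lesions to the cell cycle engine. ATM is activated at DNA double-strand breaks and phosphorylates CHEK2, whereas ATR is brought by ATRIP to single-stranded DNA at stalled forks and resected breaks, where the clamp loader subunit RAD17 and the activator TOPBP1 switch it on and CLSPN (claspin) presents CHEK1 to it. The checkpoint kinases act against the CDC25 phosphatases, and WEE1 and PKMYT1 place the inhibitory phosphates on cyclin-dependent kinases that CDC25 removes. These are reactions of proteins and phosphates, which RNA levels do not report.

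The libraries held between 18573309 and 22953834 estimated counts, except IR replicate 3 with 45308792. IR replicate 3 also stood apart from the other IR libraries, with a chi-square per gene of 29.1 and 32.3 against them and between 3.46 and 9.22 for the other pairs within a group, so values without it are given below. The file name of IR replicate 3 carries a mark (rep) that the others lack, and what this mark stands for is not given in the sources used here. CDKN1A, the p53 target that codes for p21, was at 122, 124 and 120 CPM (the count relative to the TMM-scaled size of its library) in untreated cells and at 322, 341 and 390 CPM after IR, higher in every IR library (log2 fold change 1.53, adjusted P = 2.82e-05, edgeR's quasi-likelihood test). Of 7 mesenchymal and osteoblast markers, VIM, COL1A1 and SPARC were at 1465 CPM or above in every library, RUNX2 lay between 11.3 and 16.1 CPM, and COL1A2 and ALPL were at 4.95 CPM or below. The 5 epithelial markers summed to between 304 and 309 CPM in untreated cells and between 369 and 449 CPM after IR, nearly all from KRT8 and KRT18, with KRT19 at 0 in 5 of 6 libraries. Of the haematopoietic markers, PTPRC was between 0.753 and 1.76 CPM, LYZ was at 0.272 CPM or below, and CD3E and HBB were at 0 in all 6 libraries. CDKN2A, which U-2 OS cells are known not to express, was at 0 in all 6 libraries, whereas ATRX, also on the list of genes lost in this line, was at 218 to 224 CPM in untreated cells and 151 to 184 CPM after IR.

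All 10 genes passed the filter on low counts, with between 325 and 5618 estimated counts in a library. After IR, 6 of the 10 were lower (CLSPN, TOPBP1, ATM, ATR, WEE1 and CHEK1), and RAD17, CHEK2, ATRIP and PKMYT1 did not pass the threshold of 0.05 on the adjusted P. None was called higher, by edgeR or by DESeq2's Wald test, and 0 were higher at an unadjusted P under 0.05. Among the 14323 genes tested, 30.1% were called, 14.5% lower and 15.5% higher. In the same 6 genes every IR library was below every untreated library, which held for 23.3% of all genes tested, and in the other 4 the groups overlapped. The median log2 fold change of the 10 genes was -0.27, beside 0.01 for all genes tested, and 8 of the 10 values were below 0. The decreases were modest. They ran from 14.2% for CHEK1 to 29.8% for CLSPN, and CLSPN ranked 507 among the 2080 genes called lower when these were ordered by log2 fold change. In bulk RNA, fewer cells in a phase of the cell cycle and less RNA per cell cannot be told apart. Lists of cell cycle genes moved with these values, with 25 of 42 S phase genes lower (CLSPN, itself on that list, left out) and 39 of 54 G2/M genes lower and 1 higher. Their part in the changes of the checkpoint genes was not tested.

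**Figure D1:**
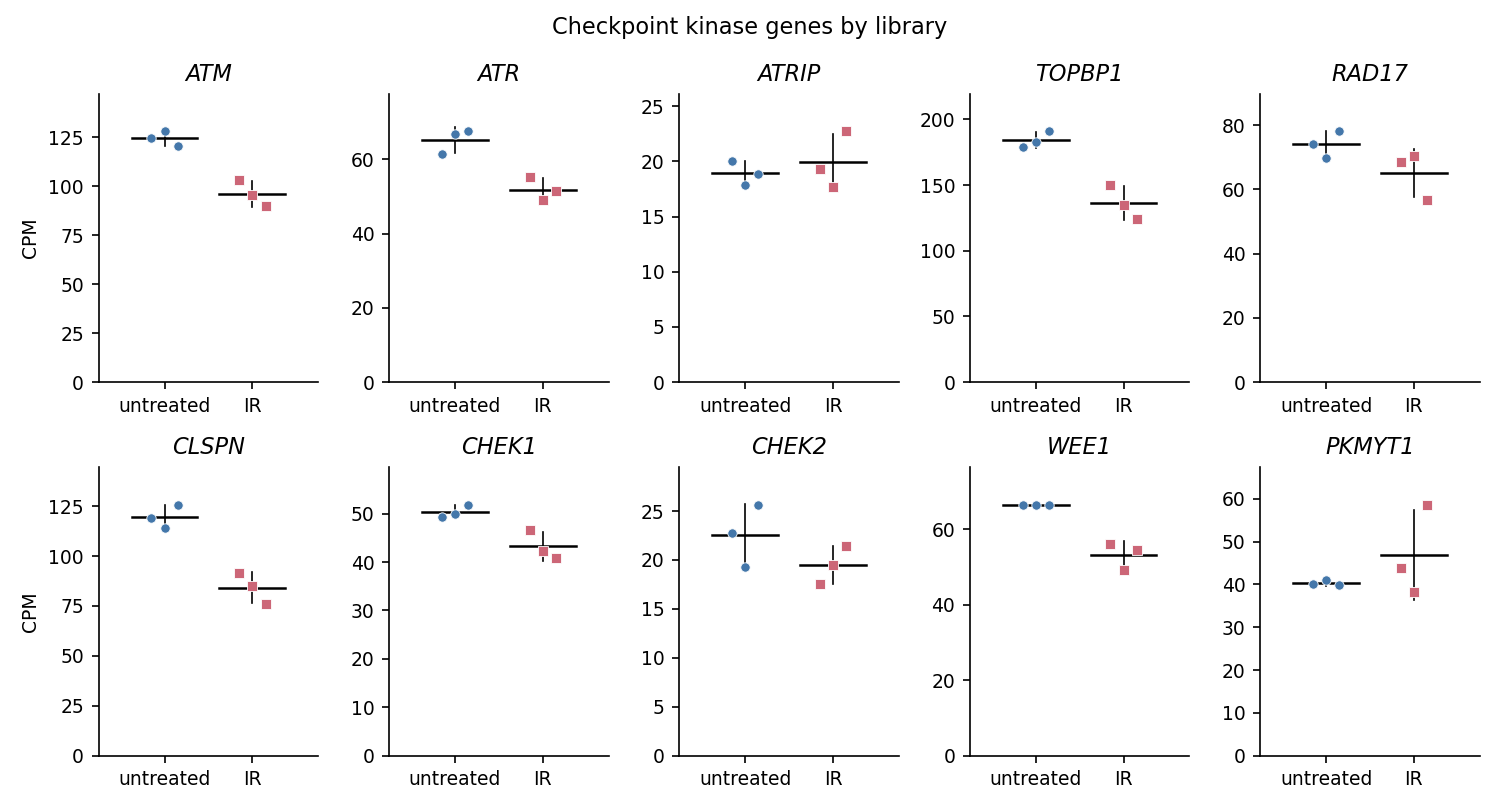
CPM of each of the 10 genes in the 3 untreated libraries (blue circles) and the 3 IR libraries (red squares), with the mean (horizontal line) and the SD (vertical line) of each group and an axis from 0 in each panel. The groups are apart in ATM, ATR, TOPBP1, CLSPN, CHEK1 and WEE1, and 1 IR library of PKMYT1, at 58.6 CPM, lies above all others.

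ATM, the plus-strand gene at chr11:108223044-108369102 (GRCh38, as for all positions below), has 63 exons in its canonical transcript. It was at 125, 128 and 120 CPM in untreated cells and at 103, 95.6 and 89.6 CPM after IR. Every IR library lay below every untreated library, and ATM was 22.8% lower after IR (log2 fold change -0.37, SE 0.07, 95% confidence interval -0.53 to -0.22, adjusted P = 0.00415, edgeR's quasi-likelihood test). Without IR replicate 3 the log2 fold change was -0.33, and it was -0.22 once the dependence of each library on the GC content of genes was removed (adjusted P = 0.0169, edgeR). Kallisto also estimates an effective length for each transcript in each library, and with this length as an offset ATM was no longer lower, with a log2 fold change of 0.11 (adjusted P = 0.586, edgeR). The mean effective length of ATM, weighted by TPM, was 2822 to 3529 bases in untreated cells and 2164 to 2349 bases after IR, without overlap. How often effective lengths were apart in this way over all genes was not measured.

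The estimated mix of ATM transcripts was also tested, with a result that depended on the filter and on single libraries. Among 14 transcripts of ATM tested, differential usage was called for the gene (adjusted P = 0.0358, Simes P of edgeR's diffSpliceDGE), which was the case for 2.67% of 10666 genes tested, and ATM was the only called gene of the 10. The transcript of lowest P was ATM-212, which the annotation classes as a target of nonsense-mediated decay, the pathway that degrades RNA with an early stop codon. It took 4.21, 5.11 and 4.43% of the ATM counts in untreated cells and 0.538, 0 and 0% after IR, with estimated counts of 95.6, 147 and 109 against 11.4, 0 and 0. The groups did not overlap, and relative to the other ATM transcripts its log2 fold change was -3.37 (adjusted P = 0.0145 over all transcripts, edgeR). ATM-212 could pass the filter on low counts only through the untreated group, where it was high. Its P, and the call for ATM that it led, cannot be taken apart from that filter. The gene-level call was lost without untreated replicate 1 (adjusted P = 0.24, edgeR), with the replicate number as a block (0.11) and with coding transcripts alone, where ATM-212 is not counted. ATM was called in the other leave-one-out fits, with adjusted P from 2.33e-06 to 0.0435, but ATM-212 led the call in only 1 of these, the fit without untreated replicate 3. In the fits without untreated replicate 2 or any one IR library the transcript of lowest P was the coding ATM-203 (adjusted P from 8.33e-07 to 0.00481, edgeR). ATM-203 did not pass the filter of the reported fit, and its counts came from 2 of the 3 untreated libraries. It too could pass the filter only through the untreated group, so these P values and calls cannot be taken apart from that filter. For ATM-212 itself the call was lost without untreated replicate 1 (adjusted P = 0.105, edgeR), untreated replicate 2 (0.101), IR replicate 2 (0.588) or IR replicate 3 (0.777), with log2 fold changes between -3.32 and -2.81.

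ATM-212 has 61 exons and joins base 108292793 of chromosome 11 to base 108297287, which leaves out exons 31 and 32 of the canonical transcript ATM-229, at chr11:108293313-108293477 and chr11:108294927-108295059. The skipped exons, of 165 and 133 bases, together hold 298 bases, 1 more than a whole number of codons, so that the reading frame shifts. They and the new junction are shown because they are what sets ATM-212 apart inside the coding sequence. Sequences are from GENCODE release 44, 5′ to 3′ on the plus strand, and the capitals mark the stop codon that the shifted frame meets 24 bases after the junction, where the first 30 bases are the end of the exon before it.
Exon 31 of ATM-229: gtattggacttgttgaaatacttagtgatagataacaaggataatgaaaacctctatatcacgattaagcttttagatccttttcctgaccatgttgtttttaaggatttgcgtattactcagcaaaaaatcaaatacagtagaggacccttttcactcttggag
Exon 32 of ATM-229: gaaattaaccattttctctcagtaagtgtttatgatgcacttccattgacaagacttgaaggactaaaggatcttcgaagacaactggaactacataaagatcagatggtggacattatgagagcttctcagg
ATM-212 across its junction: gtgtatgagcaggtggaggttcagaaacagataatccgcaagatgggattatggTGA
Read from its annotated start, ATM-212 holds 1545 codons before this stop, against 3056 in ATM-229. ATM-212 also ends 3329 bases before ATM-229, and the estimated counts do not show on which of these features its reads lay. The canonical ATM-229 took 40.6, 61.5 and 57.0% of the ATM counts in untreated cells and 60.5, 60.8 and 63.2% after IR, with overlap. The coding ATM-203 was estimated at 28.2, 0 and 9.12% in untreated cells and at or near 0% in each IR library, so that its estimates differed widely within the untreated group. The retained-intron transcript ATM-219 overlapped between groups, with means of 11.2% and 10.5%.

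ATR, the second of these large kinases, lies at chr3:142449007-142578733 on the minus strand, with 47 exons in its canonical transcript. It was at 61.3, 66.8 and 67.6 CPM in untreated cells and at 55.2, 48.9 and 51.4 CPM after IR. The groups did not overlap, and ATR was 20.5% lower after IR (log2 fold change -0.33, SE 0.07, 95% confidence interval -0.49 to -0.17, adjusted P = 0.00875, edgeR), with the same log2 fold change of -0.33 without IR replicate 3. With the GC trend removed, the log2 fold change was -0.17 (adjusted P = 0.0779, edgeR), and with the effective length offset it was 0.24 (adjusted P = 0.185). The mean effective length of ATR was 4128 to 4742 bases in untreated cells and 2941 to 3060 bases after IR.

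The share of ATR counts on transcripts of the protein_coding class was 61.4, 58.2 and 62.7% in untreated cells and 42.3, 49.8 and 33.8% after IR. It was lower in each IR library (P = 0.1 in a two-sided exact permutation test, which cannot go lower with 3 libraries a group), as in 5.16% of 11889 genes, and the median change of this share over all genes was 0.28 percentage points. The nonsense-mediated decay transcript ATR-215 took 11.1, 10.3 and 9.56% of the ATR counts in untreated cells and 21.7, 18.2 and 24.1% after IR. The retained-intron transcript ATR-212 took 3.72, 3.82 and 4.77% and 12.1, 6.48 and 11.8%. Both noncoding transcripts held a higher share in every IR library than in any untreated library. How often single transcripts were apart in this way over all genes was not measured, here and for the transcripts of the other genes. Neither passed the usage test over all transcripts, and for ATR as a gene diffSpliceDGE of edgeR gave an adjusted P of 1.0. The coding transcripts ATR-201, with 21.0, 36.9 and 62.7% and then 22.4, 34.5 and 12.9%, and ATR-219, with 40.4, 21.3 and 0% and then 19.9, 15.3 and 20.9%, overlapped between groups. With coding transcripts alone the log2 fold change of ATR was -0.89.

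ATRIP, the partner that binds ATR to coated single-stranded DNA, lies at chr3:48446710-48467645 on the plus strand, with 13 exons. It was at 20.04, 17.8 and 18.9 CPM in untreated cells and 19.3, 17.7 and 22.7 CPM after IR. The groups overlapped (log2 fold change 0.09, SE 0.11, 95% confidence interval -0.15 to 0.32, adjusted P = 0.566, edgeR), and without IR replicate 3 the value was -0.04. TREX1, the gene of an exonuclease, shares 26.7% of the exon bases of ATRIP on the same strand, so that reads can be divided between them. TREX1 was at 4.64 to 6.997 CPM, and the sum of both genes, an alternative chosen after seeing the annotation, gave a log2 fold change of 0.10. The canonical ATRIP-201 took 29.4, 28.8 and 23.2% of the ATRIP counts in untreated cells and 33.6, 31.9 and 39.9% after IR, without overlap. The decay transcripts ATRIP-209 and ATRIP-208 overlapped between groups, and the usage test did not call ATRIP.

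TOPBP1, the scaffold whose activation domain switches on ATR, lies at chr3:133598175-133662380 on the minus strand, with 28 exons. It was at 179, 183 and 191 CPM in untreated cells and 150, 135 and 124 CPM after IR. The groups did not overlap, and TOPBP1 was 26.1% lower after IR (log2 fold change -0.44, SE 0.08, 95% confidence interval -0.61 to -0.26, adjusted P = 0.00316, edgeR). Its value was -0.38 without IR replicate 3, -0.32 with the GC trend removed and -0.48 with the length offset. The canonical TOPBP1-201 held nearly all of its counts, with a mean share of 88.4% in untreated cells and 88.7% after IR, and overlap between the groups.

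RAD17, which loads the 9-1-1 clamp next to ATR, lies at chr5:69369293-69414801 on the plus strand, with 19 exons. It was at 74.1, 69.7 and 78.1 CPM in untreated cells and 68.4, 70.5 and 56.7 CPM after IR. The groups overlapped, and the log2 fold change of -0.19 (SE 0.09, 95% confidence interval -0.39 to 0.02) did not pass the test (adjusted P = 0.145, edgeR). It was -0.10 without IR replicate 3 and -0.01 with the GC trend removed. TAF9 and AK6 overlap 9.1% and 5.0% of the exon bases of RAD17 on the opposite strand, and the strand setting of the counting is not given in the sources used here. The main transcripts RAD17-204 and RAD17-220 overlapped between groups.

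CLSPN, the adaptor between ATR and CHEK1, lies at chr1:35720218-35769978 on the minus strand, with 25 exons. It was at 119, 114 and 126 CPM in untreated cells and 91.6, 85.0 and 75.9 CPM after IR. The groups were well apart, and CLSPN had the largest decrease of the 10 genes, at 29.8% (log2 fold change -0.51, SE 0.08, 95% confidence interval -0.69 to -0.33, adjusted P = 0.0019, edgeR). Its value was -0.45 without IR replicate 3, -0.42 with the GC trend removed and -0.67 with the length offset. The canonical CLSPN-202 took 32.7, 31.2 and 29.8% of the CLSPN counts in untreated cells and 35.3, 37.0 and 49.5% after IR, without overlap. CLSPN-201, CLSPN-203 and CLSPN-206 overlapped between groups, and the usage test did not call CLSPN.

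CLSPN and TOPBP1 were the only genes of the 10 that were called lower in the reported fit and under each of the 15 alternatives. The start regions of both are shown because they share a match that none of the other 6 genes with a window has. Promoter windows from RefSeq on GRCh38.p14 run from 250 bases before a start to 50 bases after it. WEE1 and PKMYT1 had none, and the other 8 of the 10 genes had between 1 and 3 such windows, 14 in all. They were searched on both strands for E2F motifs (TTTGGCGC, TTTGCCGC, TTTCGCGC or TTTCCCGC, the letters that E2F factors of the G1/S transition are known to bind), for the cell cycle homology region (TTTGAA or TTCGAA) and for the CCAAT box. The 2 sequences below, 5′ to 3′ on the minus strand, end 20 bases after the start and lie at chr1:35769959-35770228 and chr3:133661922-133662191. Capitals mark the E2F matches, GCGGGAAA in CLSPN from base -5 to 3 and GCGCGAAA in TOPBP1 from base -7 to 1 around the start, and the 3 CCAAT boxes of CLSPN, read as ATTGG.
CLSPN: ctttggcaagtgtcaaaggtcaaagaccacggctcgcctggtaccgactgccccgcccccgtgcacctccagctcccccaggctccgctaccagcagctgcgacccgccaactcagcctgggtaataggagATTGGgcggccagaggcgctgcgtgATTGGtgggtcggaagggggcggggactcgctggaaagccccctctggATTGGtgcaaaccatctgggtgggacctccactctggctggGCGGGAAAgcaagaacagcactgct
TOPBP1: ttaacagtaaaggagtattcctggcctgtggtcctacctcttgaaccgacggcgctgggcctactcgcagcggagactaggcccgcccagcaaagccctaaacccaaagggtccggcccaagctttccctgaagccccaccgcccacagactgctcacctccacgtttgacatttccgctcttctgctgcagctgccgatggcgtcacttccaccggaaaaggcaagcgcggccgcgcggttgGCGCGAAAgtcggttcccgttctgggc
An E2F match was in 3.31% of the 35116 windows of the table and in 2 of the 8 genes, CLSPN and TOPBP1. A cell cycle homology region was in 16.4% of windows and in a window of ATM and of RAD17. A CCAAT box was in 34.6% of windows and in a window of 6 genes (CLSPN, ATRIP, RAD17, ATM, CHEK1 and CHEK2). Genes with several windows had more chances of a match, the letters were searched after the values were seen, and a match describes letters and not a bound factor.

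CHEK1, the effector kinase that ATR activates, lies at chr11:125625163-125676255 on the plus strand, with 13 exons. It was at 49.3, 49.99 and 51.8 CPM in untreated cells and 46.7, 42.2 and 40.9 CPM after IR. The groups did not overlap, but the decrease of 14.2% was the smallest of the called genes (log2 fold change -0.22, SE 0.07, 95% confidence interval -0.38 to -0.06, adjusted P = 0.0438, edgeR). The call was lost under 10 of 15 alternatives, with adjusted P from 0.061 to 0.282 in those fits, among them the fit without IR replicate 3, where the log2 fold change was -0.19, and the removal of the GC trend, where it was -0.12. Its transcripts CHEK1-204, CHEK1-215, CHEK1-203 and CHEK1-211 overlapped between groups, and 93.2% and 93.4% of its counts were on coding transcripts.

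CHEK2, the effector kinase that ATM activates, lies at chr22:28687743-28742422 on the minus strand, with 15 exons. It was at 22.7, 19.3 and 25.7 CPM in untreated cells and 17.5, 19.4 and 21.4 CPM after IR. The groups overlapped, and no change was detectable at this spread (log2 fold change -0.21, SE 0.12, 95% confidence interval -0.46 to 0.05, adjusted P = 0.203, edgeR). Without IR replicate 3 the value was -0.30 (adjusted P = 0.0843, edgeR). The decay transcript CHEK2-212 was estimated at 31.3% of the CHEK2 counts in untreated cells and 29.1% after IR in the mean, the coding CHEK2-210 ranged from 0 to 32.9% within the IR group, and CHEK2-223 also overlapped between groups. CHEK2 has pseudogene copies elsewhere in the genome, and its counts are uncertain where reads match them.

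WEE1, the nuclear kinase that adds the inhibitory phosphate to CDK1 and CDK2, lies at chr11:9573670-9593457 on the plus strand, with 11 exons. It was at 66.5, 66.4 and 66.4 CPM in untreated cells and 56.0, 49.2 and 54.6 CPM after IR. The groups did not overlap, and WEE1 was 19.8% lower after IR (log2 fold change -0.32, SE 0.07, 95% confidence interval -0.47 to -0.16, adjusted P = 0.0085, edgeR). It was -0.35 without IR replicate 3. The call was lost with the GC trend removed (log2 fold change -0.17, adjusted P = 0.0998, edgeR) and with coding transcripts alone (-0.18, adjusted P = 0.184). The latter fit does not count WEE1-203, a retained-intron transcript with 12.7, 13.1 and 13.8% of the WEE1 counts in untreated cells and 8.61, 6.67 and 6.83% after IR. The coding share of WEE1 was higher in every IR library, with 74.9, 76.8 and 86.2% against 73.1, 70.0 and 70.9% (P = 0.1, two-sided exact permutation test), which held for 10.6% of genes, and the usage test did not call WEE1. The main transcript WEE1-210 held 50.7% and 55.9% of the WEE1 counts in the means of the groups, and WEE1-210, WEE1-207 and WEE1-206 overlapped between groups.

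PKMYT1, the membrane-bound relative of WEE1 that phosphorylates CDK1, lies at chr16:2968024-2980479 on the minus strand, with 9 exons. It was at 40.0, 41.0 and 39.9 CPM in untreated cells and 43.8, 38.3 and 58.6 CPM after IR. The untreated libraries were close together and the IR libraries lay on both sides of them (log2 fold change 0.23, SE 0.13, 95% confidence interval -0.06 to 0.52, adjusted P = 0.212, edgeR). Without IR replicate 3 the value was 0.02. The canonical PKMYT1-201 held 65.7% and 70.5% of its counts in the means of the groups. PKMYT1 has a GC content of 66.7%, above that of 98.9% of the genes tested, and with the GC trend removed it was called lower, with a log2 fold change of -0.24 (adjusted P = 0.0357, edgeR). PAQR4 and KREMEN2 overlap 24.7% and 7.2% of its exon bases on the opposite strand. KREMEN2 was at 7.69 to 8.65 CPM in untreated cells and 9.64 to 16.4 CPM after IR (log2 fold change 0.66, adjusted P = 0.0184, edgeR), and PAQR4 at 23.8 to 29.97 CPM in all libraries, and their part in the reads of PKMYT1 was not tested.

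**Figure D2:**
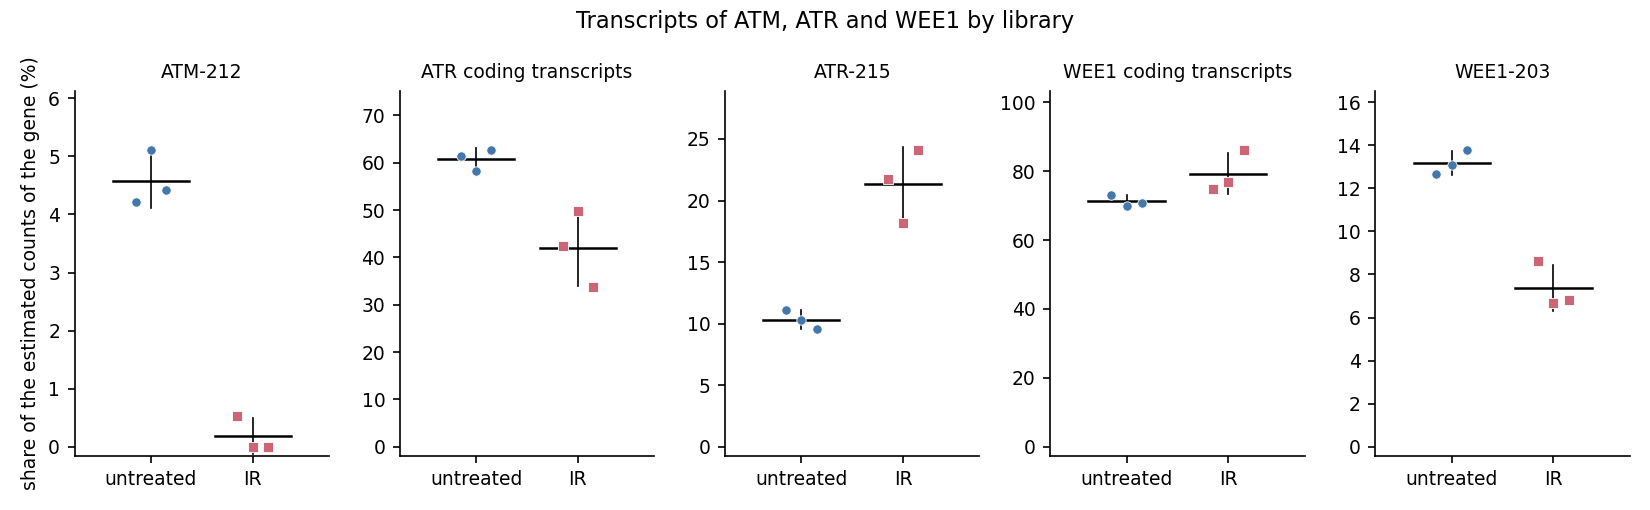
Share of the estimated counts of the gene, in percent, for the transcript ATM-212, the coding transcripts of ATR, the transcript ATR-215, the coding transcripts of WEE1 and the transcript WEE1-203, in the untreated (blue circles) and IR (red squares) libraries with mean and SD. In each panel the groups do not overlap, and ATM-212 is at or near 0 after IR. Of these genes the usage test called ATM only.

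Fold changes followed the GC content of genes in these libraries, and 5 of the 10 genes have a GC content from 38% to 41.8% (RAD17, ATR, ATM, WEE1 and TOPBP1). Among all tested genes within 1 percentage point of the GC content of ATM, 29.7% were called lower and the median log2 fold change was -0.17. For ATR these values were 31.4% and -0.18, and for WEE1 29.5% and -0.16. For TOPBP1 they were 25.02% and -0.13, and for CLSPN 20.7% and -0.09. CLSPN was lower than all but 6.84% of the genes of like GC content, TOPBP1 than all but 11.5%, ATM than all but 18.5% and ATR than all but 25.6%. RAD17 sat near the middle of its neighbours, with 50.5% of them below it, and PKMYT1 below most of its own, whose median was 0.47. With the trend removed, 4 of the 10 genes were called lower (CLSPN, TOPBP1, ATM and PKMYT1), so that 3 of the 6 calls were kept.

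**Figure D3:**
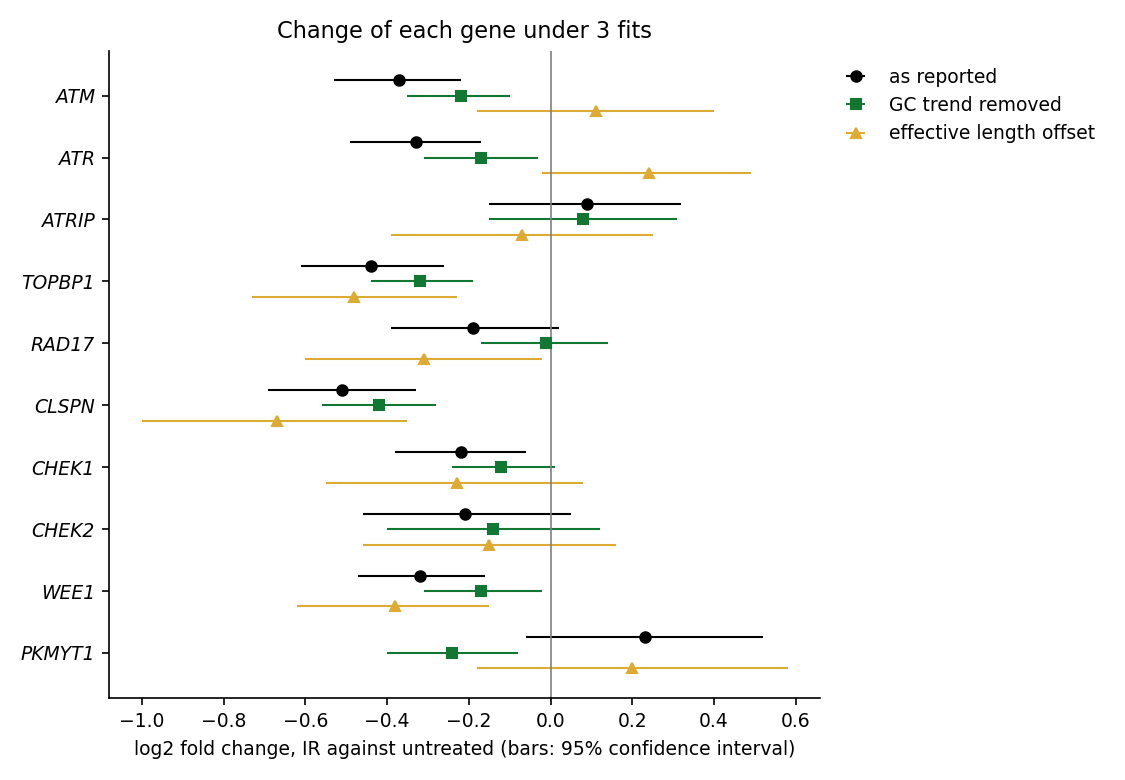
Log2 fold change of IR against untreated with its 95% confidence interval for each gene, as reported (black circles), with the GC trend of each library removed (green squares) and with an offset for effective length (yellow triangles). CLSPN, TOPBP1 and WEE1 stay below 0 with the whole interval in all 3 fits, ATM and ATR cross to 0.11 and 0.24 with the length offset, and PKMYT1 moves from 0.23 to -0.24 with the GC trend removed.

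Levels were compared between genes on the deposited TPM values, which are scaled per length and were summed per gene. In untreated cells TOPBP1 was highest, at 71.0 ± 5.2 TPM (SD, n = 3), followed by CHEK1 at 59.9 ± 5.16, WEE1 at 53.7 ± 0.295, RAD17 at 52.5 ± 4.41, ATM at 50.3 ± 6.93 and CLSPN at 46.0 ± 0.726. From CHEK1 down to CLSPN neighbours in this order overlapped, whereas TOPBP1 stood above CHEK1 and CLSPN above CHEK2. CHEK2 at 29.1 ± 3.66 TPM and PKMYT1 at 25.1 ± 2.45 TPM overlapped with each other. ATR at 18.7 ± 2.19 TPM and ATRIP at 11.8 ± 1.68 TPM were lowest and apart from each other, so that the apical kinase ATM had a higher level per length than ATR. After IR the order by mean was ATM, CHEK1, TOPBP1, RAD17, WEE1, PKMYT1, CLSPN, CHEK2, ATR and ATRIP. Neighbours in this order overlapped from ATM to TOPBP1 and from RAD17 to CHEK2. TPM is scaled by the effective length, whose mean for ATM was 2822 to 3529 bases in untreated cells and 2164 to 2349 bases after IR. The part of this length in the order was not tested. CLSPN went from 45.3, 46.0 and 46.7 TPM to 32.9, 27.6 and 22.9 TPM, and TOPBP1 from 70.0, 76.6 and 66.3 TPM to 52.3, 48.9 and 45.7 TPM. In TPM the groups were apart, with IR lower, in TOPBP1, CLSPN, WEE1 and RAD17, and overlapped in the other 6, ATM and ATR among them. TPM was lower in every IR library in 21.8% of all genes tested. ATM was at 44.9, 58.1 and 47.8 TPM in untreated cells and at 59.2, 47.6 and 50.8 TPM after IR.

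**Figure D4:**
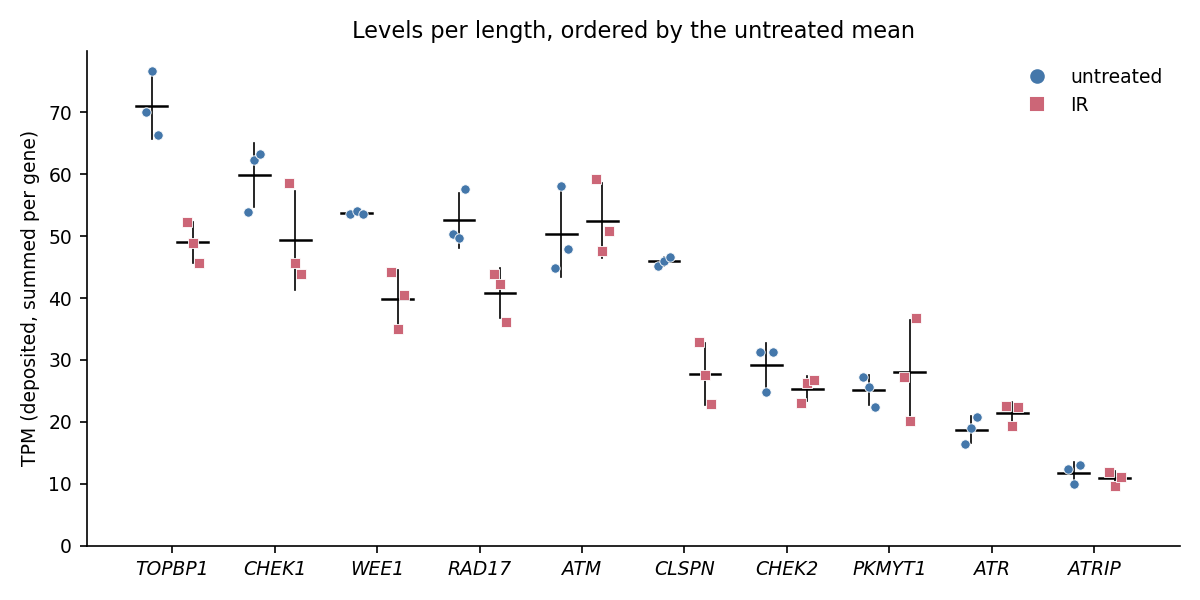
Deposited TPM summed per gene in the untreated (blue circles) and IR (red squares) libraries, with mean and SD, for the 10 genes in the order of their untreated mean. TOPBP1, WEE1, RAD17 and CLSPN are lower in every IR library, while ATM and ATR overlap between groups.

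Partners and parallel kinases were compared through the log2 ratio of their CPM in each library, in 6 pairs, with two-sided exact permutation tests that cannot give a P below 0.1 (0.15 after Benjamini–Hochberg adjustment over the 6 pairs here). The ratio of ATR to ATRIP went from 1.79 ± 0.15 (SD, n = 3) to 1.39 ± 0.18 after IR, a difference of -0.40. This difference was -0.30 without IR replicate 3 and -0.23 with the GC trend removed (P = 0.2, permutation test). With the length offset it turned to 0.30. The ratio of WEE1 to PKMYT1 went from 0.72 ± 0.02 to 0.20 ± 0.27, a difference of -0.52. This difference was -0.36 without IR replicate 3 and became 0.08 with the GC trend removed. The ratio of CHEK1 to CLSPN went from -1.25 ± 0.05 to -0.96 ± 0.06, a difference of 0.29 that lay between 0.26 and 0.45 with the GC trend removed, with the length offset, with coding transcripts alone and in the 6 leave-one-out fits. The ratio of TOPBP1 to RAD17 went from 1.32 ± 0.07 to 1.07 ± 0.12, a difference of -0.25. This difference was -0.29 without IR replicate 3 and -0.17 with the length offset (P = 0.4, permutation test). In the reported fit these 4 pairs had ratios that did not overlap between groups, at the smallest P the design allows. In CPM the groups were apart, with IR lower or higher, in 47.1% of all genes tested. How often the ratios of other gene pairs were apart was not measured. The ratios of CHEK1 to CHEK2 and of ATM to ATR overlapped, with differences of -0.01 and -0.04.

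Of 39 further genes of checkpoint signalling, 38 were tested (HUS1B did not pass the filter), of which 12 were lower and 2 higher. Among all genes tested, 14.5% were lower and 15.5% higher, shares that also stand beside the counts of the small groups below. The median log2 fold change of the 38 genes was -0.17. No gene of the 9-1-1 clamp (5 tested), of the RPA complex with the second ATR activator ETAA1 (4), of the TIMELESS and TIPIN fork protection complex (2) or of the p38 branch (2) was called by edgeR or by DESeq2, with 1 clamp gene and none of the others lower at an unadjusted P under 0.05. Of the 4 small clamp loader subunits that RAD17 works with, RFC5 was lower, from between 55.2 and 57.5 CPM to between 47.0 and 48.1 CPM (log2 fold change -0.23, adjusted P = 0.0193, edgeR). Among genes of ATM activation and signal amplification, 3 of 5 were lower, including the break sensor subunit NBN (-0.28, adjusted P = 0.0159) and MDC1, the adaptor that binds phosphorylated H2AX (-0.37, adjusted P = 0.0149). PRKDC, the catalytic subunit of DNA-PK and the third kinase of the family of ATM and ATR, was at 702, 747 and 679 CPM in untreated cells and 526, 427 and 439 CPM after IR. Every IR library lay below every untreated library (log2 fold change -0.61, adjusted P = 0.00124, edgeR). TELO2 and TTI1 belong to the complex that helps these kinases mature, and they moved in opposite directions. TELO2 was at 21.1, 24.7 and 26.1 CPM and then 34.6, 27.8 and 47.9 CPM (log2 fold change 0.63, adjusted P = 0.0205, edgeR), and TTI1 had a log2 fold change of -0.24 (adjusted P = 0.0294). TELO2 has a GC content of 66.1%, and the median log2 fold change of genes within 1 percentage point of it was 0.43. With the GC trend removed TELO2 was at 0.17 (adjusted P = 0.3, edgeR), TTI1 at -0.20 (0.0575), NBN at -0.09 (0.263) and RFC5 at -0.16 (0.0737), and none of these 4 was called. PRKDC, at -0.57 (adjusted P = 0.000902, edgeR), and MDC1, at -0.43 (0.00752), kept their call. Of the 38 genes, 8 were called lower and 1 higher in this fit.

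Downstream, 3 of 7 genes of CDKs, cyclins and CDC25 phosphatases were lower, among them CCNA2, the cyclin of S and G2 phase (log2 fold change -0.44, adjusted P = 0.0028, edgeR), and CDC25A, the phosphatase that CHEK1 marks for degradation (-0.28, adjusted P = 0.0232), while CDK1, CDK2 and CCNB1 were not called. Of 5 genes of checkpoint recovery, 3 were lower, among them BORA (-0.49, adjusted P = 0.00363), the activator of Aurora A, and AURKA itself (-0.29, adjusted P = 0.00719). PPM1D, the WIP1 phosphatase that reverses ATM signalling and is a known p53 target, was called higher at 114, 114 and 132 CPM against 156, 157 and 128 CPM (log2 fold change 0.29, adjusted P = 0.0407, edgeR), with IR replicate 3 inside the untreated range. Of the 38 genes, edgeR called 5 lower without untreated replicate 1, 6 without untreated replicate 2 and 6 without IR replicate 2. It called 1 higher without IR replicate 1 or IR replicate 2, and 0 without untreated replicate 1 or untreated replicate 2, where 2 were higher at an unadjusted P under 0.05.

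**Figure D5:**
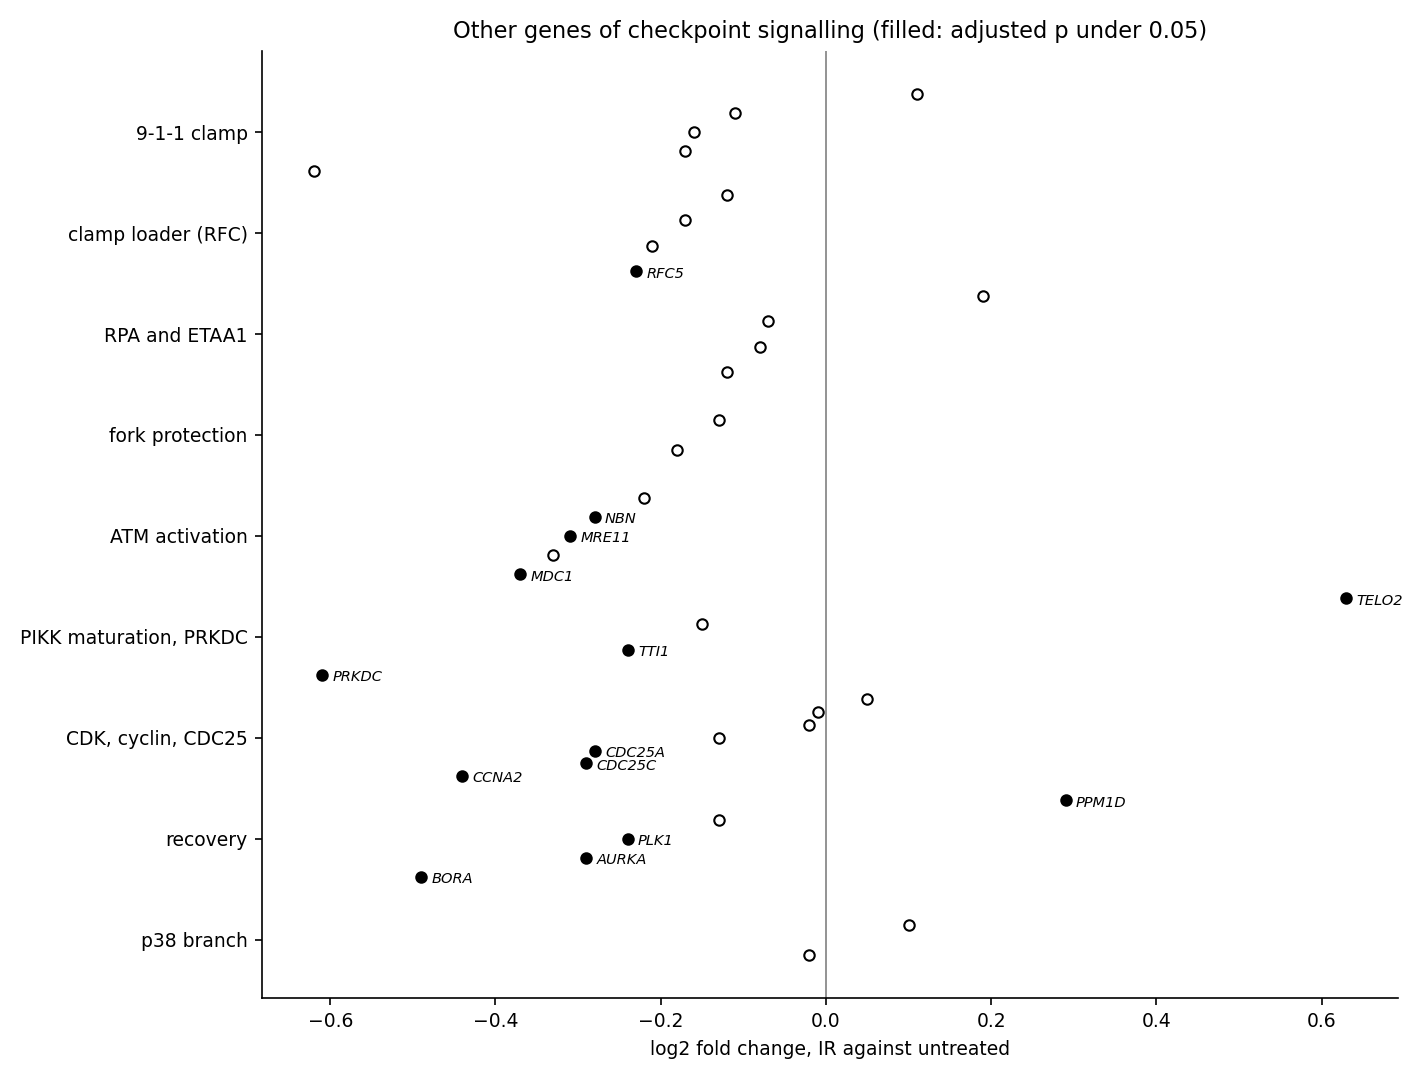
Log2 fold change of IR against untreated for 38 other genes of checkpoint signalling in 9 groups, 1 point per gene, filled and named where the adjusted P was under 0.05. The 12 filled points on the left run from PRKDC at -0.61 to RFC5 at -0.23, and TELO2 at 0.63 and PPM1D at 0.29 are the 2 on the right.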

How the data were processed

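RNA of U-2 OS cells (3 untreated and 3 IR libraries) was measured by bulk RNA-seq. Per the methods of the study, the authors used fastp for adaptors and kallisto on GENCODE release 37 (GRCh38.p13), and deposited per transcript an estimated count, which is not normalized, and a TPM value scaled by effective length and library total. Kallisto and GRCh38 are also named in the submitters' processing notes. The effective length exceeded the length for 24.2 to 29.1% of transcripts of a library, so that an offset for it can hold more than length. The labels name an mRNA library kit and the methods of the study a total RNA kit, and the strand setting is not given in the sources used here. Of 161171 transcripts, 158711 had an identifier in GENCODE release 44, and their estimated counts were added up per gene, then rounded. Columns of length were used only for offsets.

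Genes kept by filterByExpr were scaled by TMM and tested by edgeR's quasi-likelihood test (edgeR 4.0.16, limma 3.58.1, DESeq2 1.42.0, R 4.3.3) over all 14323 genes, adjusted by Benjamini–Hochberg and called under 0.05. The SE was obtained from the log2 fold change and the square root of F. CPM use TMM-scaled library sizes. Transcript usage was tested by diffSpliceDGE. Ratios and shares were compared by exact permutation over libraries. Depth ranged from 18573309 to 45308792 estimated counts, and the scripts were tested on simulated data.

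All 10 genes are named, with transcripts that held at least 10% of the counts of their gene in the mean of a group. Of the other checkpoint genes up to 2 called genes of lowest p in each direction per group are named. Genes whose exons overlap those of the 10, CDKN1A and marker genes are named as checks. A marker on the lists is not reported here. ATM-212, CDK1, CDK2 and CCNB1 were chosen after their values were seen. The 10 genes and the lists were chosen with earlier results of these data known. Alternatives were the filter on low counts (none, or at least 10 counts in every library), DESeq2's size factors and Wald test, the likelihood ratio test, removal of the GC trend by a spline with 5 degrees of freedom, the effective length offset, a replicate block, protein_coding transcripts alone, and leaving out each library. No library was a copy of another (chi-square per gene of 3.46 or more within groups). Whether the replicate numbers pair the libraries is not given in the sources used here. Deviations of same-numbered libraries correlated at -0.017, 0.007 and -0.052, which cannot show whether they were handled as pairs.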

Additional observations from a re-analysis of the deposited data

How the results depend on the processing

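CLSPN and TOPBP1 kept their direction and call under all 15 alternatives, with log2 fold changes from -0.67 to -0.42 and from -0.53 to -0.32. CHEK2 and RAD17 stayed below 0 and uncalled, from -0.31 to -0.10 and from -0.31 to -0.01. The other 6 genes changed under at least 1 alternative. With the effective length offset, ATM was at 0.11, ATR at 0.24, ATRIP at -0.07 and CHEK1 at -0.23, with no call for any of them, the ratio of ATR to ATRIP at 0.30, 3 of the 10 genes were lower, 837 genes were higher and 875 lower in all, and 1 and 4 of the other checkpoint genes. With the GC trend removed, ATR was at -0.17, CHEK1 at -0.12, WEE1 at -0.17 and PKMYT1 at -0.24, the ratio of CHEK1 to CHEK2 at 0.03 and that of WEE1 to PKMYT1 at 0.08, and 1 of the other checkpoint genes was higher. With protein_coding transcripts alone, CHEK1 was at -0.23 and WEE1 at -0.18, uncalled, the ratio of ATM to ATR at 0.41, 1277 genes were higher in all, 1 of the other checkpoint genes was higher, and 154 genes had changed usage. Without a filter CHEK1 was at -0.22 (adjusted P = 0.061, edgeR). The cause of these moves was not tested.

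The replicate number was also used as a block, a pairing that the sources used here do not state. In this fit CHEK1 was at -0.22 and uncalled (adjusted P = 0.0913, edgeR), 5 of the 10 genes were lower and 1 other checkpoint gene was higher. Changed usage was called for 149 genes in place of 285, with ATM no longer among them (adjusted P = 0.11, edgeR). The block changed no other call of the 10 genes. With transcripts kept at 10 counts in every library of a group, 518 genes had changed usage.

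Leaving out each library in turn gave 1295 to 2114 genes higher and 1244 to 2284 lower, 0 to 2 and 5 to 13 other checkpoint genes higher and lower, and 228 to 443 genes with changed usage. CHEK1 lay between -0.29 and -0.19 and lost its call in 5 of these 6 fits, ATRIP lay between -0.04 and 0.16, and the difference of CHEK1 and CHEK2 between -0.14 and 0.10. PKMYT1, CHEK2 and ATRIP had the widest confidence intervals, and 3 libraries a group set the smallest permutation P at 0.1.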
